A study of Mus musculus with 18 samples.

Results

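Keratinocytes, the epithelial cells that build the epidermis, were not the cells sorted in this study, yet 10 of their genes can be followed through every library of sorted leukocytes. The 10 genes were Krt1, Krt5, Krt10, Krt14, Krt15, Krt17, Lor, Flg2, Sfn and Perp, a set of genes of the epidermis, out of a table of 49585 genes. The mice carried the Kaede strain label, a transgene for a green protein that ultraviolet light turns red, so that cells lit in a tissue remain red wherever they go. Inflamed mice received OT-II Th1 cells and were immunised with ovalbumin in complete Freund's adjuvant, then challenged with heat-aggregated ovalbumin in the footpad or the ear pinna. The protocol also names a challenge with PBS, without saying which libraries received it. The sort described for all samples took viable CD45+ Kaede red+ cells from digested tissue or lymph node, the day after photoconversion.

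There were 6 groups of 3 libraries. Skin nonmigrated and joint nonmigrated cells came from the inflamed ear and the inflamed joint. Skin migrated and joint migrated cells were the red cells of the node that drains each inflamed site. Skin node steady-state and joint node steady-state libraries are labelled as cells that had moved from the ear or the joint to its node at steady state. Their titles, however, read Naive for the skin node and PBS with KG for the joint node. What KG stands for is not given. The titles of the inflamed skin libraries read KR, so KG may mean Kaede green, which would be cells that were not photoconverted. Whether these libraries hold photoconverted migrated cells is thus uncertain, and every comparison with them below carries that limit. Each library was a pool of age- and sex-matched male and female mice, so the p-values below measure the spread between pools. In these bulk pools, fewer cells of a type and less RNA per cell cannot be told apart. Nor can RNA of the sorted leukocytes be told apart from RNA or cells carried over from the tissue.

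The epidermis renews from its base. Basal keratinocytes make the filament pair Krt5 and Krt14 and rest on a basement membrane. Cells that leave the base switch to the pair Krt1 and Krt10, and in the outermost layers they load the cornified envelope with proteins such as loricrin (Lor) and filaggrin 2 (Flg2). Krt15 marks basal cells and the follicle bulge, and Krt17 marks follicles and injured epidermis. Perp is a membrane protein of desmosomes, the junctions that hold keratinocytes together, and Sfn encodes stratifin, an adaptor protein of the 14-3-3 family.

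The members fell into 3 patterns. Krt1, Krt5, Krt14, Krt15 and Krt17 were counted almost entirely in skin nonmigrated cells. Krt10, Sfn and Perp were counted in all 18 libraries. Lor reached 4 counts over all 18 libraries together and Flg2 none. The basal keratins were therefore present, as the label of the set would have it, while the cornified-layer members were at or near 0, and Krt10, Sfn and Perp also had levels in the groups where the other keratins were at the floor.

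To show the start regions of 1 gene that was counted almost only in skin nonmigrated cells and 2 that were counted throughout, the 250 bases before the RefSeq start (build GRCm38.p6, which has the coordinates of mm10) are printed 5′ to 3′ for Krt5, Krt10 and Sfn. Capitals mark TATAAA, the core of the TATA box.
Krt5 (chr15:101712906-101713155, minus strand): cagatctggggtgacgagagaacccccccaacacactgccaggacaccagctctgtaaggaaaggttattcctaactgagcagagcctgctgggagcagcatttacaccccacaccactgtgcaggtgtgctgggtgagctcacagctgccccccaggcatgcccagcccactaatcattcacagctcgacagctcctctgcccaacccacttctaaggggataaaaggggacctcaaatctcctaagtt
Krt10 (chr11:99389365-99389614, minus strand): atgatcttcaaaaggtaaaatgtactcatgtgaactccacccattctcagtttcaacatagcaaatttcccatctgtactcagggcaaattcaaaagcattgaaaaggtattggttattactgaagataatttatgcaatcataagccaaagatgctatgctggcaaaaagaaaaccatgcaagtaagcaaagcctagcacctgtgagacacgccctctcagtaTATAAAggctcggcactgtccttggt
Sfn (chr4:133602169-133602418, minus strand): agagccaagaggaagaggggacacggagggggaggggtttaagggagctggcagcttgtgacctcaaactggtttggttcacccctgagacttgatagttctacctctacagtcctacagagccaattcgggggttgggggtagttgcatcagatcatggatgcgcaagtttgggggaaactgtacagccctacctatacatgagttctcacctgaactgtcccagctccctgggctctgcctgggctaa
TATAAA was found in the Krt10 window and not in the windows of Krt5 and Sfn, and on either strand it occurs in 12.4% of 32851 mouse windows of this length. The letters GCCNNNGGC (an AP-2 motif, in 13.7% of windows) and TGANTCA (an AP-1 motif, in 6.75%) were in none of the 3 windows shown. These matches describe letters only.

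On mm10, the type II keratins Krt1 (chr15:101845426-101850794) and Krt5 (chr15:101707070-101712898) lie close together on chromosome 15. The type I keratins Krt10 (chr11:99385254-99389364), Krt15 (chr11:100131758-100135928), Krt14 (chr11:100203162-100207548) and Krt17 (chr11:100256217-100261029) lie on chromosome 11. Lor (chr3:92080271-92083142) and Flg2 (chr3:93197278-93221391) share chromosome 3, Sfn (chr4:133600556-133602168) is on chromosome 4 and Perp (chr10:18845020-18857073) on chromosome 10. All 10 are protein-coding, and counts cover their exons. The annotated antisense genes Gm44323 and Gm11940 overlap 5.87% of the exon bases of Krt5 and 6.91% of those of Krt10, and the strand setting was not given beyond the counter's default, so reads from those stretches cannot be told apart. Keratins of one type resemble each other closely, and reads that aligned to more than 1 place were not counted, so levels of Krt14 and Krt17 in particular are uncertain to that extent.

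Assigned counts ranged from 19239531 to 43814403 per library. The 6 inflamed skin libraries, at 19239531 to 22528895, were the shallowest, and their columns alone carry sequencing sample numbers. In comparisons of inflamed skin with inflamed joint, the site cannot be told apart from that difference in handling. The same limit holds where inflamed skin is compared with a steady-state node. A count of 3, used here as the floor, was worth 0.0616 to 0.180 CPM depending on the library. CPM gives the count per 1000000 assigned counts, with library sizes scaled by the trimmed mean of M values (TMM).

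In skin nonmigrated cells the basal pair had the highest mean levels of the members per length, at 35.5 CPM per kilobase of exon for Krt5 and 31.8 for Krt14. Krt5 was at 72.4, 149 and 12.3 CPM in skin nonmigrated replicates 1, 2 and 3, from 1207, 2553 and 236 counts. Its partner Krt14 was at 55.6, 103 and 9.77 CPM in the same libraries. Replicate 2 was highest and replicate 3 lowest for both genes. In the 3 skin migrated libraries Krt5 had no count at all, so that its pooled level was at least 1610-fold higher in skin nonmigrated cells, set against 3 counts over the group. Krt14 had 5 counts over the 3 skin migrated libraries, a pooled ratio of 693 (95% exact counting interval 297 to 2137). These intervals and bounds cover counting error only, and PCR copies are not independent molecules.

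Joint nonmigrated cells held almost none of the basal pair, with 1 library apart. Krt5 had 17, 0 and 0 counts in joint nonmigrated replicates 1, 2 and 3, which is 0.465 CPM in replicate 1. Krt14 had 3, 0 and 0 counts there. The same pool thus held all the counts of both genes in this group. Pooled, Krt5 was 443 times as high in skin nonmigrated as in joint nonmigrated cells (interval 276 to 761) and Krt14 was 1802 times as high (616 to 8744). In the other 2 joint nonmigrated libraries Krt5 and Krt14 were not detectable.

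The remaining members of this pattern followed the same order at lower levels, with means of 8.46 CPM per kilobase for Krt15, 1.54 for Krt17 and 1.04 for Krt1. Krt1 is annotated with 4415 exon bases in 2 merged blocks, against 1551 bases in 8 blocks for Krt17. The rank of Krt1 below Krt17 depends on that length, since in CPM its mean was 4.61 against 2.39. Krt15 was at 13.0, 28.9 and 2.96 CPM in the 3 skin nonmigrated libraries and had 3 counts in all 15 other libraries together. Krt1 was at 3.60, 9.76 and 0.468 CPM and had at most 2 counts in any other library. Krt17 was at 2.16, 4.03 and 0.987 CPM, and outside skin nonmigrated cells its highest count was 4, in joint nonmigrated replicate 1. For each of the 3 genes every skin nonmigrated library lay above every other library. Krt1 was at least 95.1-fold higher in skin nonmigrated than in skin migrated cells, where it had no count, and Krt17 at least 49.9-fold. Krt15 had a pooled ratio of 464 (128 to 3838) over skin migrated cells, which held 2 counts.

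**Figure D1:**
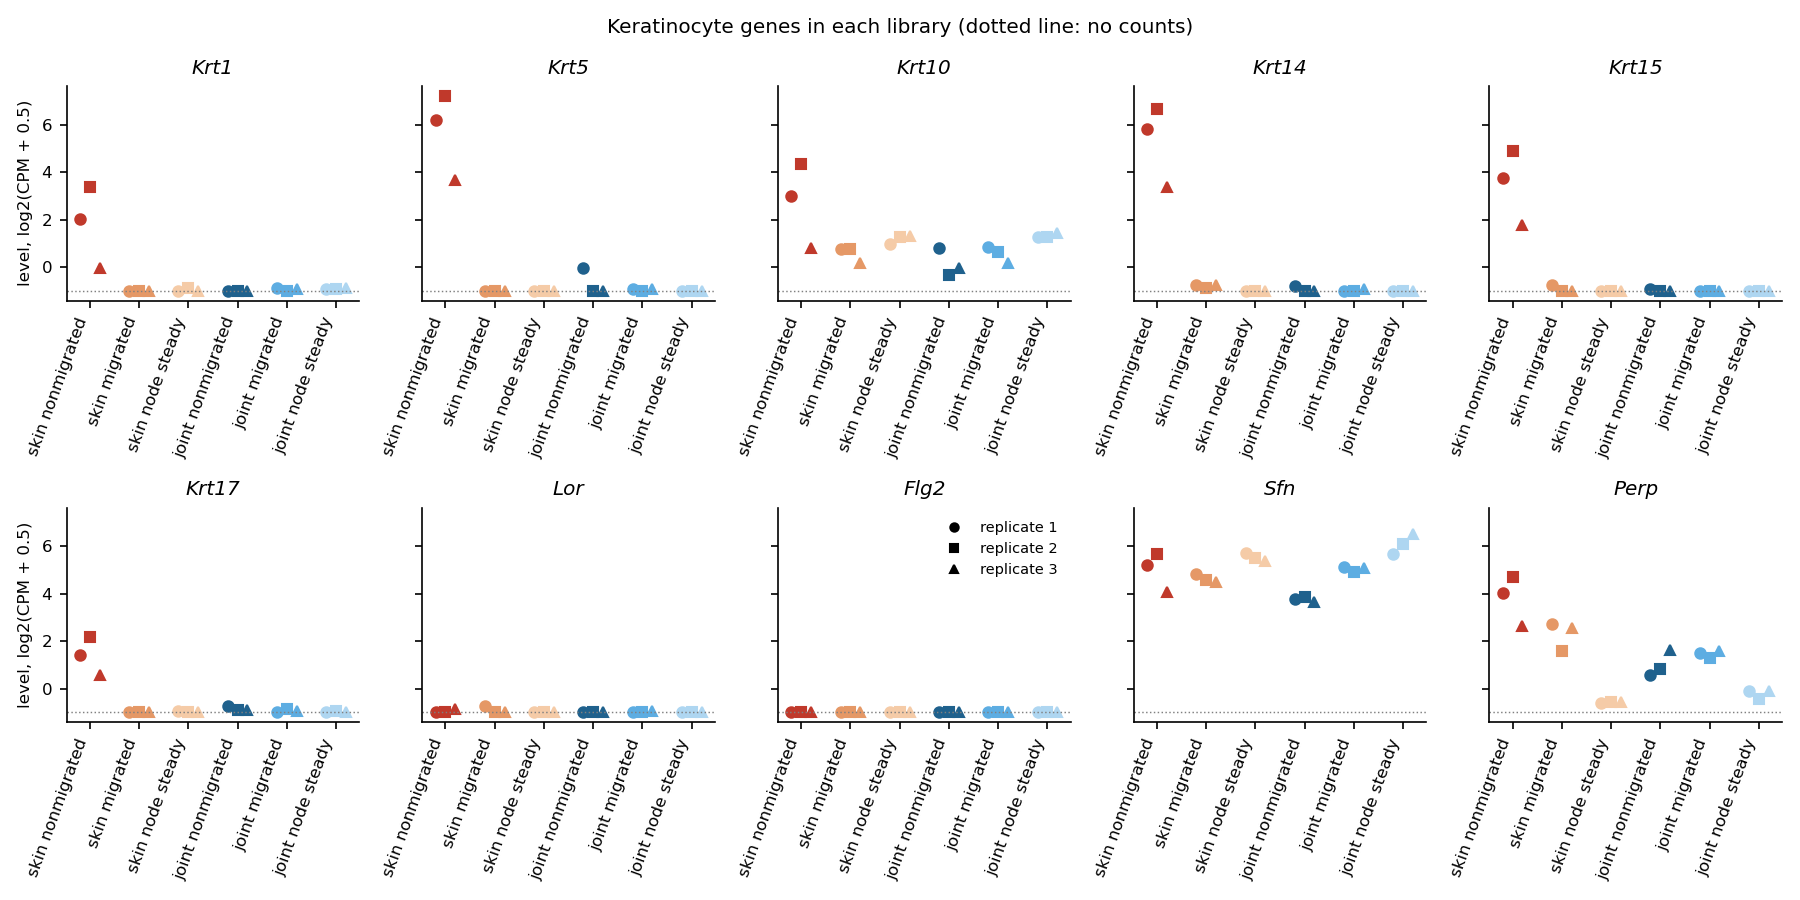
Each panel shows 1 gene, with its level as log2(CPM + 0.5) on the y axis and the 6 groups on the x axis, 1 point per library and the marker giving the replicate. Krt1, Krt5, Krt14, Krt15 and Krt17 leave the line of no counts mainly in skin nonmigrated cells, whereas Krt10, Sfn and Perp lie above it in all 18 libraries and Lor and Flg2 stay near or on it.

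The steady-state nodes held no count of Krt5, Krt14 or Krt15 in any of their 6 libraries. Krt5 was accordingly at least 3027-fold higher in skin nonmigrated cells than in the skin node at steady state and at least 3285-fold higher than in the joint node at steady state. Krt1 had 2 counts over the skin node libraries and 4 over the joint node libraries. Joint migrated cells held 2 counts of Krt5, 1 of Krt14 and 3 each of Krt1 and Krt17. These counts were at the floor or next to it, and no order among these node groups could be read from them.

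The 3 skin nonmigrated pools differed from each other several-fold in these genes. Replicate 2 exceeded replicate 3 by 20.9-fold for Krt1, 15.9-fold for Krt10, 12.2-fold for Krt5, 10.5-fold for Krt14 and 9.77-fold for Krt15. The ratio was 4.43 for Perp, 4.08 for Krt17 and 3.15 for Sfn. All 8 detected members stood in the order replicate 2, then 1, then 3, an order chosen after their values were seen. Of 13295 genes with a mean of at least 1 CPM in these libraries, 24.9% stood in that order and 1.14% did so with replicate 2 over 5-fold above replicate 3. Of the members, 5 did so by over 5-fold. Genes that spread as widely in another order were not counted. The 10 members summed to 206, 391 and 49.7 CPM in the 3 libraries, and their mean of 216 CPM became 128 without replicate 2 and 299 without replicate 3.

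Although the amount differed, Krt5, Krt14 and Krt10 stood in similar proportions from pool to pool. Compared per kilobase of exon, the level of Krt5 over that of Krt14 was 1.04 (0.956 to 1.14), 1.17 (1.10 to 1.24) and 1.00 (0.826 to 1.22) in replicates 1, 2 and 3. The level of Krt5 over that of Krt15 was 4.49, 4.15 and 3.33, and over that of the suprabasal Krt10 it was 9.44, 7.23 and 9.46. For Krt10 the 3 counting intervals overlapped (7.84 to 11.5, 6.45 to 8.12 and 6.21 to 15.1). Krt5 over Krt1 was 40.4, 30.7 and 52.7, so that per kilobase the basal keratin exceeded both suprabasal keratins in every pool. The size of the ratio to Krt1 depends on the 4415 exon bases annotated for that gene, against 2197 for Krt5.

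Sfn, Perp and Krt17 did not keep a fixed proportion to Krt5. Per kilobase, Krt5 over Sfn was 1.47 (1.33 to 1.62) and 2.15 (1.99 to 2.33) in replicates 1 and 2 but 0.557 (0.468 to 0.662) in replicate 3. Krt5 over Perp was 4.08, 5.14 and 1.87, and Krt5 over Krt17 was 23.7, 26.1 and 8.77. Replicate 3, the pool with the least keratin, thus held more Sfn, Perp and Krt17 for each unit of Krt5 than the other pools did, with counting intervals that did not overlap theirs. The choice of these pairs was made with the values in view, and no test was made of them.

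**Figure D2:**
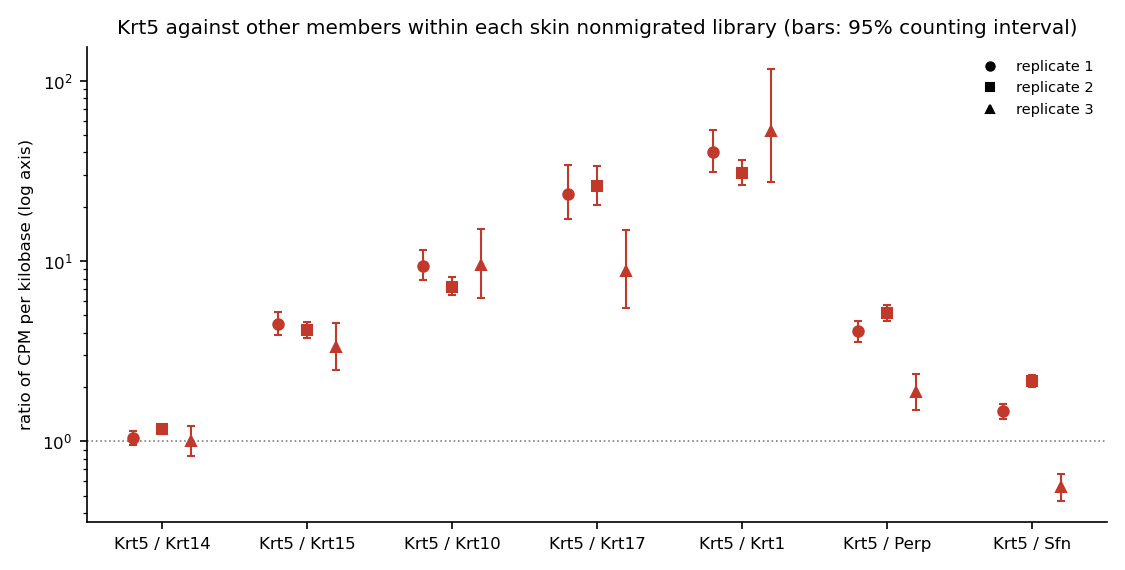
The y axis gives the ratio of the CPM per kilobase of Krt5 to that of 7 other members on a log axis, within each of the 3 skin nonmigrated libraries, with 95% counting intervals as bars. The ratios to Krt14 lie between 1.00 and 1.17, while the ratio to Sfn lies above 1 in replicates 1 and 2 and at 0.557 in replicate 3.

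Krt10, a suprabasal keratin, had a level in every library that the other keratins lacked. It was at 7.38, 19.9 and 1.25 CPM in skin nonmigrated cells. In skin migrated cells it was at 1.21, 1.20 and 0.620 CPM, and in joint nonmigrated cells at 1.23, 0.299 and 0.481 CPM. Skin nonmigrated replicate 3 was thus only just above the highest library of either group. The 2 steady-state nodes stood at 1.48 to 1.96 CPM in skin and 1.89 to 2.24 CPM in joint, above that replicate, and joint migrated cells at 0.643 to 1.27 CPM. By mean level the order was skin nonmigrated, joint node steady state, skin node steady state, skin migrated, joint migrated and joint nonmigrated. In that order the only neighbours whose libraries did not overlap were the skin node at steady state and skin migrated cells.

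Sfn, the 14-3-3 adaptor, had the highest mean level per kilobase of the members in each of the other 5 groups. It was at 36.3, 50.9 and 16.2 CPM in skin nonmigrated cells and at 28.0, 23.5 and 22.4 CPM in skin migrated cells. It was lowest in joint nonmigrated cells, at 13.4, 14.2 and 12.2 CPM, and stood at 34.3, 30.1 and 33.0 CPM in joint migrated cells. The steady-state nodes had the highest means, with libraries at 52.6, 45.1 and 41.4 CPM in skin and 50.1, 67.5 and 90.3 CPM in joint, although skin nonmigrated replicate 2 stood among them. The highest mean of Sfn, 69.3 ± 20.2 CPM (SD, n = 3), was thus in a group that held no Krt5, Krt14 or Krt15. By mean level the order was joint node steady state, skin node steady state, skin nonmigrated, joint migrated, skin migrated and joint nonmigrated. The first 4 overlapped from neighbour to neighbour, whereas joint migrated, skin migrated and joint nonmigrated cells stood apart from one another.

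Perp, the desmosome protein, was highest in the skin and lowest in the resting nodes. It was at 15.8, 25.8 and 5.82 CPM in skin nonmigrated cells, and at 6.19, 2.50 and 5.41 CPM in skin migrated cells. Joint nonmigrated cells held 0.985, 1.26 and 2.59 CPM, and joint migrated cells 2.32, 1.96 and 2.49 CPM. The steady-state nodes held 0.157 to 0.185 CPM in skin and 0.245 to 0.444 CPM in joint, below every library of the inflamed groups. By mean level the order was skin nonmigrated, skin migrated, joint migrated, joint nonmigrated, joint node steady state and skin node steady state. Of these neighbours, the skin nonmigrated and skin migrated libraries overlapped, through replicate 3 of the first, and so did those of the 2 inflamed joint groups.

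**Figure D3:**
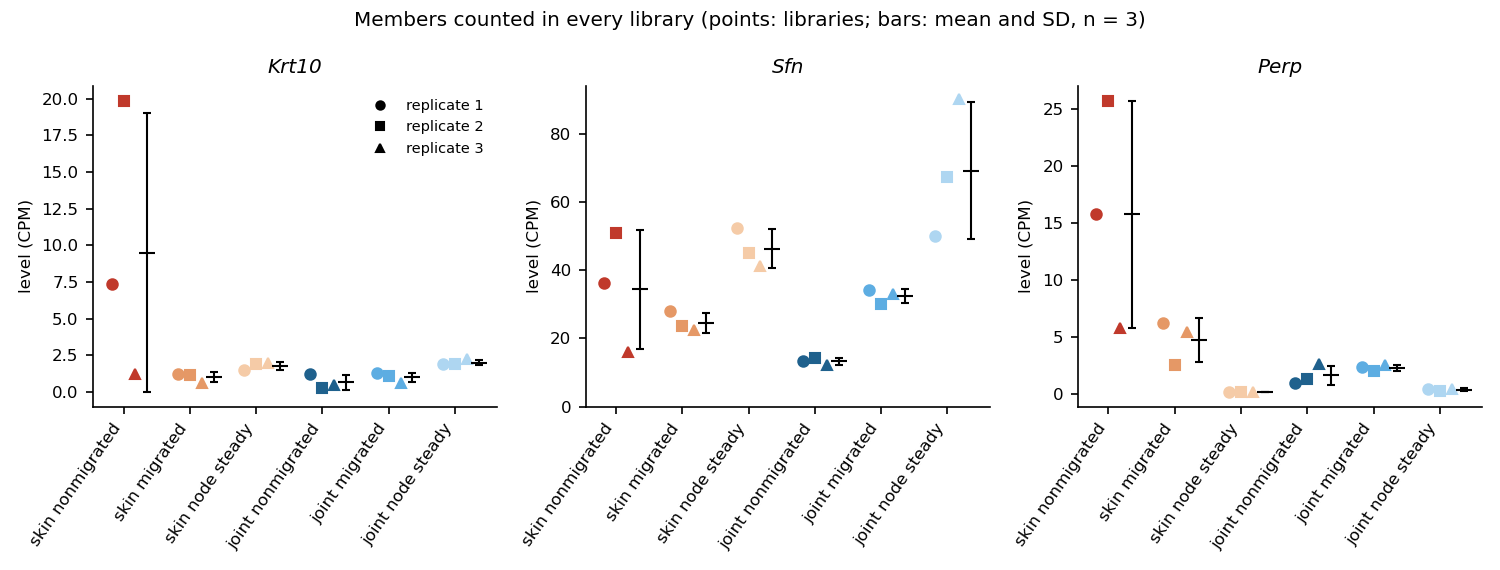
The level in CPM is on the y axis for Krt10, Sfn and Perp, with 1 point per library in the 6 groups and the mean and SD of 3 libraries as bars beside them. Sfn has its highest means in the steady-state nodes and its lowest in joint nonmigrated cells, whereas Krt10 and Perp have their highest library in skin nonmigrated replicate 2.

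Lor and Flg2, the cornified-envelope members, gave nothing to compare. Lor had 1 count in skin nonmigrated replicate 3, 2 counts in skin migrated replicate 1 and 1 count in joint migrated replicate 3. Flg2 had 0 counts in all 18 libraries, which allows up to 3 counts in each, or at most 0.0616 to 0.180 CPM. Neither passed a filter on low counts in any fit, and a difference in them was not detectable at this depth.

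The comparisons were made with edgeR's quasi-likelihood F test over 16777 genes in the 12 inflamed libraries, with Benjamini-Hochberg adjustment over all of them. Calls needed both an adjusted p under 0.05 and a log2 fold change beyond 1 in either direction. Krt1, Krt5, Krt14, Krt15 and Krt17 entered this fit through skin nonmigrated cells alone, so they had to differ there, and their calls support nothing further. The comparison of skin nonmigrated with joint nonmigrated cells sets the libraries sorted from the inflamed ear against those from the inflamed joint. In it 8 members were tested and all 8 were called higher in skin, where 8.86% of all tested genes were called higher and 5.45% lower. Krt10 was higher by 3.81 on the log2 scale (SE 0.837, edgeR adjusted p = 0.00692), Perp by 3.30 (SE 0.553, adjusted p = 0.00168) and Sfn by 1.38 (SE 0.306, adjusted p = 0.00712). Without skin nonmigrated replicate 2 the Sfn difference was 0.98 and no longer called. With an adjusted p below 0.001 the count was 3 members, namely Krt5, Krt14 and Krt15, which had to differ. Krt10, Perp and Sfn were not called at that threshold.

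Between skin migrated and skin nonmigrated cells, 7 of the 8 members were called lower in the node, where 19.7% of all tested genes were called lower and 15.7% higher. Krt10 fell by 3.24 on the log2 scale (SE 0.826, edgeR adjusted p = 0.00561), or by 2.09 without skin nonmigrated replicate 2 (adjusted p = 0.0304), and Perp fell by 1.75 (SE 0.518, adjusted p = 0.0127). Sfn gave -0.49 (SE 0.301, adjusted p = 0.184). The call of Perp rested on skin nonmigrated replicate 2, since without it the change was -1.20 with an adjusted p of 0.0664.

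Between joint migrated and joint nonmigrated cells, 1 member was called, and it was higher, where 16% of tested genes were called higher and 18.4% lower. Sfn rose by 1.29 on the log2 scale (SE 0.304, edgeR adjusted p = 0.0035). Krt10 gave 0.55 (adjusted p = 0.584) and Perp 0.49 (adjusted p = 0.454). The difference between skin and joint in this change was tested as an interaction, in which 2.17% of genes were called higher and 3.96% lower. Sfn was the 1 member called, at -1.78 (SE 0.427, edgeR adjusted p = 0.0281), while DESeq2 called 7 members, edgeR without a filter 5 and edgeR with all 18 libraries in 1 fit 5. The p-value was near the threshold: adjusted p ranged from 0.000149 to 0.0684 over 18 alternatives, and the call was lost in 10 of them. These were the stricter threshold and leaving out any 1 library other than skin nonmigrated replicate 3, joint migrated replicate 1 or joint migrated replicate 3. Perp gave -2.24 (adjusted p = 0.0843) and Krt10 -3.79 (adjusted p = 0.0647). Krt1 gave -12.7 (SE 4.3), Krt5 -11.0 (SE 7.17), Krt14 -7.85 (SE 5.89), Krt15 -6.98 (SE 159) and Krt17 -7.87 (SE 2.29). These keratins had few or no counts in the other inflamed groups. That they were not called does not show that their change was alike at both sites.

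Skin migrated and joint migrated cells differed in no member past the threshold, where 1.14% of all genes were called in either direction. No member had an unadjusted p below 0.05 by edgeR, although 2770 genes did, and DESeq2 called no member while giving 2 of them such a p. Perp gave 1.06 higher in skin (SE 0.518, edgeR adjusted p = 0.34).

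The comparison of each migrated population with the resting node was fitted over 17107 genes in the 12 node libraries, and Krt10, Sfn and Perp were the members that passed its filter. In skin, 1 member was called, Perp, which was higher in migrated cells by 4.76 (SE 0.392, edgeR adjusted p = 2.36e-07), where 21.5% of genes were called higher and 15% lower. Of these groups only skin migrated cells carry sequencing sample numbers, so inflammation cannot be told apart from that difference in handling. Sfn gave -0.88 (adjusted p = 0.000772) and Krt10 -0.79 (adjusted p = 0.044), both short of the fold threshold. In joint, 2 members were called. Perp was higher in migrated cells by 2.62 (SE 0.347, edgeR adjusted p = 3.38e-05), where 16.9% of genes were, and Sfn fell by 1.06 (SE 0.177, adjusted p = 0.00024), where 7.31% were called lower. Without joint node steady-state replicate 3, the Sfn change was -0.81 and not called. Whether these changes differed between skin and joint was not tested.

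Skin and joint nodes at steady state differed in no member past the threshold, where 3.89% of genes were called. Since the titles read Naive for the skin node and PBS with KG for the joint node, site cannot be told apart from that difference. At an unadjusted p below 0.05, edgeR and DESeq2 each gave 2 members and edgeR gave 3708 genes overall. Sfn gave -0.57 (edgeR adjusted p = 0.0661) and Perp -1.07 (adjusted p = 0.162).

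**Figure D4:**
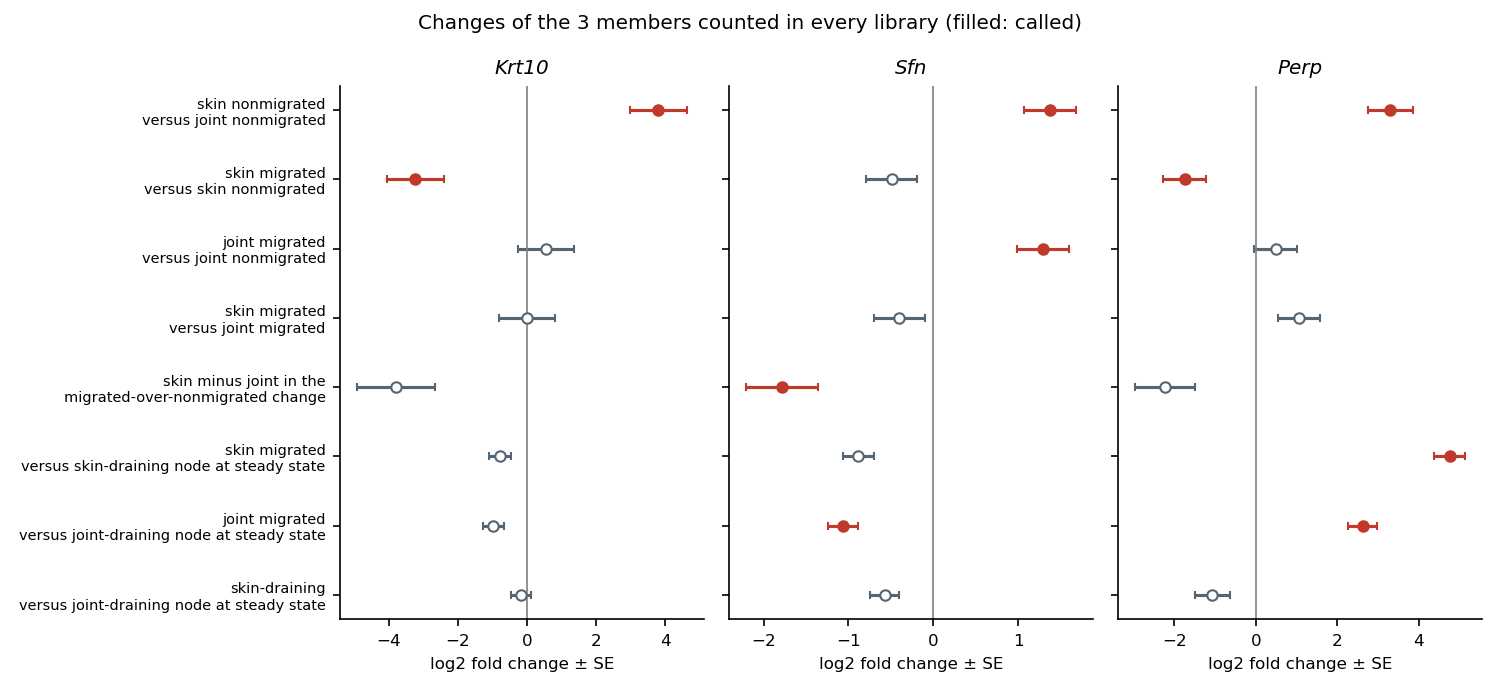
The x axes give the log2 fold change with its SE for Krt10, Sfn and Perp in the 8 comparisons of the y axis, with filled points for calls. Perp lies to the right in both comparisons of migrated cells with the resting node, while Sfn lies to the left in both and was called in the joint alone.

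Other epidermal genes from lists were read beside the members, against the 8.86% of all tested genes called higher and 5.45% called lower in skin nonmigrated than in joint nonmigrated cells. List genes counted mainly in skin nonmigrated cells entered the fit through that group, as the keratins did, so the list counts and medians are descriptions. Of 10 basal keratinocyte genes, 9 were tested between skin nonmigrated and joint nonmigrated cells, of which 6 were called higher in skin and 1 lower, with a median log2 fold change of 2.48 against -0.01 over all tested genes. Col17a1, a hemidesmosome collagen, was at 29.4, 59.7 and 4.83 CPM in the skin nonmigrated libraries and higher by 6.62 than in joint (SE 0.906, edgeR adjusted p = 0.000522). Lamb3, a chain of the basement membrane laminin, was higher by 2.79 (adjusted p = 0.000503). Its means were 18.9 and 19.3 CPM in the skin and joint nodes at steady state, above the 13.8 CPM of skin nonmigrated replicate 3. The plakin Dst was the most abundant of the list and was higher by 1.08 (adjusted p = 0.00316), but at 230, 151 and 137 CPM it did not follow the order of the keratins. In those nodes Col17a1 had means of 0.244 and 0.0920 CPM and Dst of 12.2 and 13.4 CPM, below every skin nonmigrated library.

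Of 10 desmosome and junction genes, 9 were tested in that comparison and 6 were called higher in skin, with a median of 2.40. The cadherin Cdh1 stood at 167, 182 and 91.4 CPM, the tight-junction protein Cldn1 at 82.9, 103 and 28.7 CPM and the plakoglobin gene Jup at 41.7, 51.5 and 40.6 CPM in the skin nonmigrated libraries. Jup was not called, at 0.95 higher in skin (edgeR adjusted p = 0.0269). Its mean was higher in skin migrated (62.3 CPM) and joint migrated cells (56.2 CPM) than in skin nonmigrated cells (44.6 CPM). Cdh1 (7.21 and 9.28 CPM) and Cldn1 (10.1 and 3.32 CPM) had lower means in skin migrated and joint migrated cells than in skin nonmigrated cells. In skin migrated against skin nonmigrated cells, 6 genes of the list were called lower and 2 higher, where 19.7% and 15.7% of all tested genes were.

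Suprabasal and cornified genes were only in part present. Of 24, 9 were tested between skin nonmigrated and joint nonmigrated cells and 4 were called higher, with a median of 1.26. Krt2, 1 of the 4, was at or under the floor in the 9 other inflamed libraries and so had to differ. Asprv1, a protease of the outer layers, was at 131, 253 and 76.5 CPM in skin nonmigrated cells but also at 40.2, 43.0 and 110 CPM in joint nonmigrated cells, and the difference was not called (1.26, edgeR adjusted p = 0.0558). The cross-linking enzyme Tgm1 was at 135, 109 and 64.0 CPM and was called higher by 2.56 (adjusted p = 0.00091). Krt2, a keratin of the upper layers, followed the members at 8.10, 11.9 and 0.935 CPM and had no count in any other library. Flg, Hrnr, Rptn, Alox12b, Lce1a1, Lce1b and Lce1m had no count in skin nonmigrated cells, as was the case for Flg2.

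Wound-associated genes were divided in their order. Of 9, 2 were tested between skin nonmigrated and joint nonmigrated cells and 1, Lgals7, was called higher, with values of 6.06, 9.70 and 1.56 CPM in the members' order. Krt6a was at 4.86, 0.234 and 0.468 CPM and Krt16 at 2.16, 0.117 and 0.468 CPM, so that both wound keratins were highest in replicate 1, where Krt5 and Krt14 were intermediate. Among 10 hair follicle and sebaceous gland genes, 5 were tested and 2 called higher, with a median of 1.43. Krt79, 1 of these 2, was likewise at or under the floor in the 9 other inflamed libraries and had to differ. Krt79 was at 10.1, 15.3 and 2.70 CPM, Mgst1 at 62.7, 53.1 and 73.2 CPM and Lhx2 at 2.76, 0.643 and 1.56 CPM, so only the first kept the keratins' order.

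Keratins of simple epithelium had a pattern of their own. Of 4, 2 were tested between skin migrated and skin nonmigrated cells, and Krt18 was called higher in migrated cells by 3.52 (SE 0.621, edgeR adjusted p = 0.000536). In that comparison 15.7% of all tested genes were called higher and 19.7% lower. Krt18 was at 7.36, 1.05 and 4.03 CPM and Krt8 at 3.63, 0.250 and 2.30 CPM in skin migrated replicates 1, 2 and 3, and Krt7 was at 0.791, 0.549 and 0.709 CPM. Perp stood at 6.19, 2.50 and 5.41 CPM in the same libraries, lowest in the same replicate. In joint migrated cells Perp stood at 2.32, 1.96 and 2.49 CPM. Krt18 was at 0.944, 0.957 and 0.900 CPM there, and Krt8 at 0, 0.023 and 0 CPM. The part of the cells that carry Krt8 and Krt18 in the level of Perp was not tested.

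Markers of other cells also differed between the skin nonmigrated pools. All 5 Langerhans and migratory dendritic cell genes at 1 CPM or more stood in the members' order, the 6 genes of the list summing to 685, 1005 and 254 CPM, led by Fscn1 and Ccr7. All 6 of those genes were above the floor there, and their sum was 71.6 to 112 CPM in joint nonmigrated and 3581 to 5046 CPM in skin migrated cells, which held almost no Krt5 or Krt14. The list did not move as 1 between skin migrated and skin nonmigrated cells. Aire, Ccr7 and Fscn1 were called higher in migrated cells, where 15.7% of all tested genes were. Cd207 was called lower, where 19.7% were. The 6 fibroblast genes, led by Dcn and Col3a1, went the other way, at 60.0, 62.4 and 255 CPM, and none had the members' order. Of the 7 leukocyte genes, Ptprc, which encodes CD45, was at 1240, 1374 and 1278 CPM in the 3 libraries. S100a8 (631, 801 and 342 CPM) and Itgax (239, 261 and 195 CPM) stood in the members' order. Cd3e (120, 119 and 45.0 CPM) was also lowest in replicate 3. The myeloid gene Lyz2 (1120, 1062 and 4905 CPM), H2-Ab1 (3386, 2762 and 4874 CPM) and Cd79a (0.540, 0.994 and 1.82 CPM) were highest there. The part of these cells in the members' levels was not tested. Among genes at 1 CPM or more, 24.9% of all genes stood in the members' order. Of the other lists, 1 of 4 endothelial, 1 of 2 muscle, 1 of 2 Schwann cell and 1 of 1 adipocyte genes did. None of 4 chondrocyte genes and not the 1 melanocyte gene did. With so few genes, these lists cannot be told apart from that share.

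**Figure D5:**
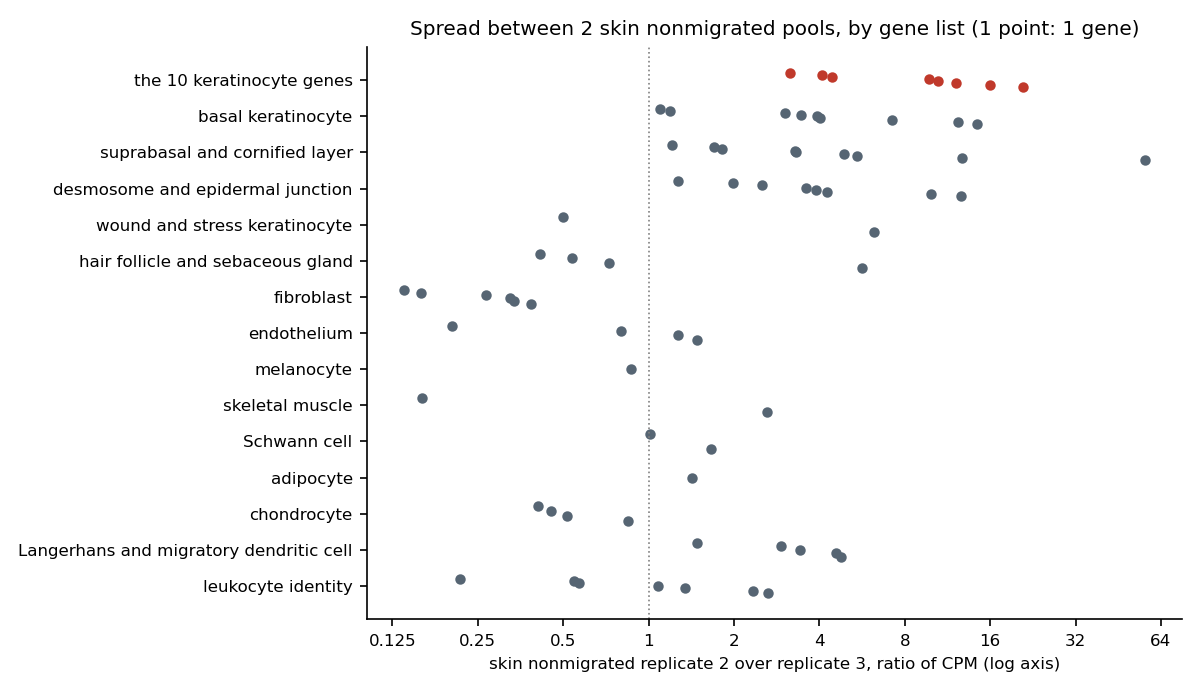
Each point is 1 gene with a mean of at least 1 CPM in skin nonmigrated cells, and the x axis gives its CPM in replicate 2 over that in replicate 3 on a log axis, by gene list. The 8 detected members lie between 3.15 and 20.9, the Langerhans and migratory dendritic cell genes all lie above 1 and the fibroblast genes all below it.

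Across the 18 libraries, the genes whose pattern was most like the members were found by correlating log2(CPM + 0.5) with the mean standardised level of the 9 members that had any count, over 12145 protein-coding genes. The 10 genes with the highest Pearson's r were Fcgbp (0.980), Clca3a2 (0.975), Dsc3 (0.973), Krt79 (0.969), Krt2 (0.969), Gzmf (0.965), Isg20 (0.962), Echdc3 (0.961), Car8 (0.959) and Avil (0.953). Clca3a2 was at 9.47, 22.7 and 1.56 CPM in the skin nonmigrated libraries and had no count elsewhere. Isg20, in contrast, reached 21.0 CPM in another group. Among the members themselves, r with Krt5 was 1.00 for Krt14, 0.80 for Krt10, 0.75 for Perp and 0.04 for Sfn. These values rest largely on the 3 skin nonmigrated libraries, which share a site and a range of depth, and are given as a description.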

How the data were processed

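RNA from sorted CD45+ Kaede red+ cells was sequenced as paired ends. Per the study's methods the authors checked reads with FastQC, trimmed with Trim Galore, aligned to mm10 with TopHat2 and counted with HTSeq, and the deposited values are raw read counts per Ensembl gene, not normalized. The counter's 5 summary lines, 11.3% to 15.1% of each column and mostly multiply aligned reads, were left out. All 18 columns were matched to labels, and 49326 of 49585 IDs to symbols.

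The members and gene lists were chosen with earlier results of these data known. Named were all 10 members, the 3 most abundant genes of each epidermal list in skin nonmigrated cells, the leading genes of other lists and the 10 genes most correlated with the members. A few further list genes were named after their values were seen. edgeR 4.0.16 (filterByExpr minimum count 10, TMM, glmQLFTest) was fitted to 12 inflamed and to 12 node libraries with group as the only term, and was tested on simulated data. CPM levels used TMM over all 18. Gene positions came from GENCODE M21, and sequences from RefSeq. Promoter windows were used where the RefSeq and GENCODE starts lay within 50 bases. Alternatives were an adjusted p of 0.001, DESeq2 1.42.0 and its size factors, no filter, other sample sets, a replicate block and each library left out.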

Additional observations from a re-analysis of the deposited data

Results flagged for a closer look

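Sfn was singled out because its change from nonmigrated to migrated cells differed between the sites by the interaction term, at -1.78 on the log2 scale (SE 0.427, edgeR adjusted p = 0.0281). Its mean level was 34.5 ± 17.4 CPM in skin nonmigrated and 24.6 ± 2.96 CPM in skin migrated cells, against 13.3 ± 1.02 CPM in joint nonmigrated and 32.5 ± 2.15 CPM in joint migrated cells (SD, n = 3 each). All 3 joint migrated libraries lay above all 3 joint nonmigrated ones, while the skin groups overlapped. The call was lost at an adjusted p of 0.001 and when any 1 of 9 of the 12 libraries was left out, which were all but skin nonmigrated replicate 3 and joint migrated replicates 1 and 3. Krt1, Krt5, Krt14, Krt15 and Krt17 had few or no counts outside skin nonmigrated cells. That they were not called does not set Sfn apart from them.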

How the results depend on the processing

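No called change of a member reversed. Of 20 calls of a gene in a comparison, 9 held under every alternative and 11 were lost under at least 1. Those that held were Krt5, Krt14 and Krt15 in skin nonmigrated against joint nonmigrated and in skin migrated against skin nonmigrated cells. Krt17 held in the second of these comparisons, and Perp in both comparisons with the resting node. The keratins had to differ, so only the calls of Perp say anything about stability. At an adjusted p of 0.001 the members called numbered 3 for skin nonmigrated against joint nonmigrated, 4 for skin migrated against skin nonmigrated, 0 for joint migrated against joint nonmigrated and 0 for the interaction. Those left in the comparisons with skin nonmigrated cells were all keratins that had to differ. The interaction count was the least stable, at 7 with DESeq2, 5 without a filter, 5 with all 18 libraries in 1 fit and 0 to 5 with 1 library left out, against 1. The causes were not tested. Without a filter on low counts, 2 members were called between skin migrated cells and the resting node, and leaving out 1 library gave 1 to 2. In the joint the same comparison gave 1 to 3. Leaving out 1 library gave 7 to 8, 6 to 7 and 1 members in the first 3 comparisons. The replicate block gave 8, 7 and 1 members in the first 3 comparisons, 1 in the interaction, 0 between the migrated groups, 1 and 3 for skin and joint migrated cells against their resting nodes and 0 between those nodes, and Krt10 was the member added in joint migrated cells against the resting node. In each comparison at least 1 same-numbered pair of libraries had a correlation of its deviations of 0.1 or less, with values over 18156 genes of 0.102, 0.0494 and 0.128 between the skin inflamed groups and 0.0117, 0.145 and 0.191 between the joint inflamed groups, so the numbers were not taken to pair samples. As a hint from the data, each number of the skin inflamed groups, and numbers 2 and 3 of the joint inflamed groups, correlated best with itself. Depth limits Lor and Flg2 throughout, and the 5 keratins outside skin nonmigrated cells, to the floor of 3 counts.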
